A study of Mus musculus with 10 samples.

Results

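The complement genes described here are 9 genes of the deposited count table, found by matching its Ensembl gene IDs to mouse symbols: C1qa, C1qb, C1qc, C3, C4b, Cfb, C3ar1, C5ar1 and Serping1. All 9 of 9 were present among the 31655 gene IDs of the table, and all 9 passed the filter on low counts. They were read in 10 RNA-sequencing libraries of mouse heart, 5 of a baicalin plus LPS group (Ba+LPS, libraries 1, 2, 3, 5 and 7) and 5 of an LPS group (libraries 1 to 5). Mice of the Ba+LPS group were gavaged for 14 days with 100 mg/kg of baicalin, a flavone glucuronide of plant origin, and then injected once into the abdomen with 10 mg/kg of lipopolysaccharide (LPS), the endotoxin of Gram-negative bacteria. Mice of the LPS group were gavaged with water and received the same LPS injection, so by the labels both groups carry the endotoxin challenge. Hearts were collected 72 hours after LPS. The sources used here give no strain, sex or age, and a saline group that the design text names was not analysed here.

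Complement is a cascade of blood and tissue proteins that tags microbes and damaged cells for uptake and attracts leukocytes. In the classical pathway C1q recognises a target and, with the proteases C1r and C1s, cleaves C4 and C2, while in the alternative pathway factor B and factor D amplify the cleavage of C3. Fragments of C3 and C5 act on receptors of myeloid cells, and the C1 inhibitor, made by Serping1, restrains C1r and C1s. The liver makes most circulating C3, whereas C1q is made mainly by macrophages and related cells within tissues.

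Library totals ran from 39.4 to 75.7 M counts, with 51.8 ± 8.31 M in Ba+LPS and 62.3 ± 12.5 M in LPS libraries (SD, n = 5 each). The heart label was checked against Myh6, the main myosin heavy chain of mouse cardiomyocytes, which lay between 13769 and 31638 CPM (counts divided by the TMM-scaled library total in M) in the 10 libraries. LPS libraries 1, 2 and 3 stood apart in transcripts outside the complement system. Their summed level of 8 acute-phase transcripts, Saa3, Lcn2 and Serpina3n among them, was 19.4 to 23.8 CPM, against 451.2 to 1569.5 CPM in Ba+LPS libraries and 1253 and 2385.4 CPM in LPS libraries 5 and 4. The same libraries had the highest cardiomyocyte marker sums, 52918 to 60824 CPM, against 33371 to 44052 CPM in Ba+LPS libraries and 28654 and 32484 CPM in LPS libraries 4 and 5. Their pericyte and smooth muscle marker sums, 1206.8 to 1310.3 CPM, likewise exceeded the 652.5 to 975.6 CPM of Ba+LPS libraries and the 625.8 and 759.1 CPM of LPS libraries 4 and 5. No label gives a batch or sets these 3 libraries apart, and whether their group label is right was not tested, a doubt that every fold change of Ba+LPS over LPS carries. Fold changes of the 9 genes and of the other complement genes named are therefore given with and without these 3 libraries. The second value keeps only 2 LPS libraries. For the 9 genes, each of which was lowest in the 3 libraries set aside, it has a higher LPS level by construction. For other complement genes the LPS level can move either way, and it falls for Colec11, which was highest in those 3 libraries.

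Endothelial marker sums differed between the groups as labelled, with 610.1 to 849.9 CPM in Ba+LPS and 823.3 to 1028.3 CPM in LPS libraries (two-sided exact permutation p = 0.0238). Of 8 endothelial markers 5 were lower at an unadjusted p under 0.05 in edgeR, against 5.88% of all genes tested. In edgeR 0 passed the adjusted threshold. DESeq2 called Tie1 and Esam lower, against 1.06% of the genes it tested called in either direction. The part of these cell-type markers in the complement values was not tested. The mitochondrial share of counts was 30.2% in LPS library 4 and 36.5% to 44.1% in the other 9 libraries, and its part in the results was not tested.

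All 9 complement genes had a higher mean in the Ba+LPS group than in the LPS group by group means, and in all 9 the libraries of the groups overlapped. Among all genes tested, 0.878% had every Ba+LPS library above every LPS library and 1.58% had every one below. Log2 fold changes of Ba+LPS over LPS ran from 0.43 for Serping1 to 1.43 for C3ar1, with a median of 0.80, against a median of 0.00 and a positive value in 49.4% of the 16850 genes tested. In edgeR's quasi-likelihood test 0 of the 9 passed an adjusted p of 0.05, as did 0% of all genes tested. At an unadjusted p under 0.05, 3 of the 9 were higher (C1qa, C1qc and C3ar1), against 5.26% of all genes, and 0 were lower, against 5.88%. LPS libraries 1, 2 and 3 were the 3 lowest of the 10 libraries for each of the 9, a pattern held by 9.61% of all genes tested. Without these libraries the members' median log2 fold change was 0.08, and 5 of 9 were positive.

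**Figure D1:**
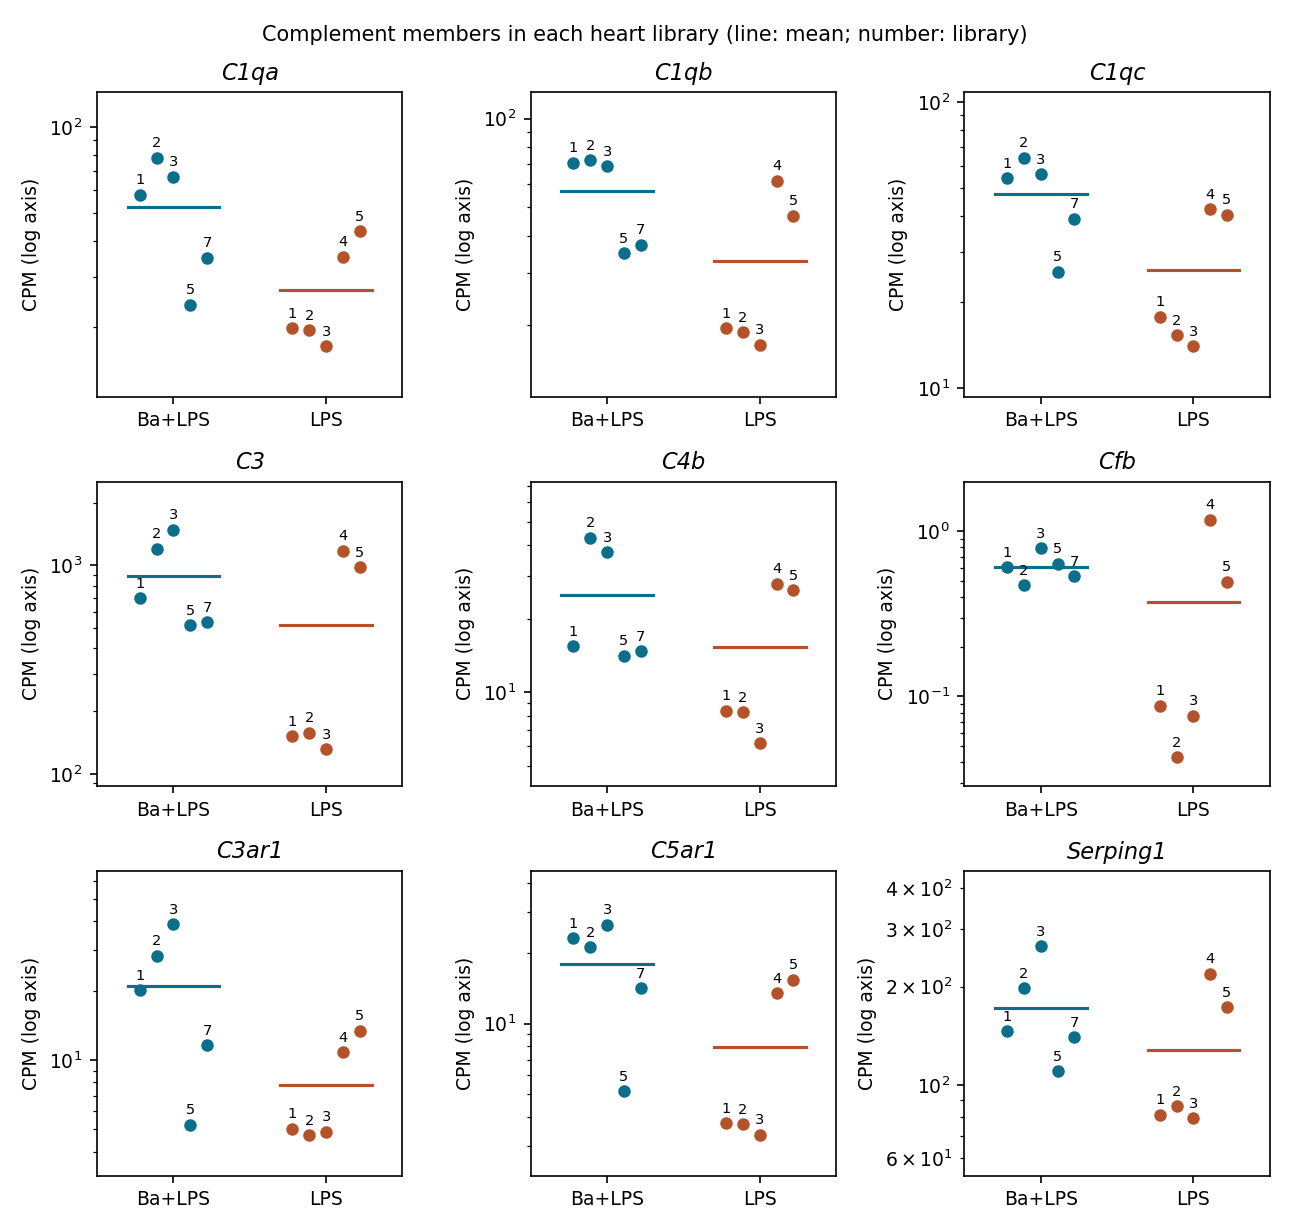
Each panel plots 1 complement gene, with Ba+LPS libraries at the left and LPS libraries at the right. Points are TMM-scaled CPM of single libraries on a log axis, labelled with the library number, and lines are group means. LPS libraries 1, 2 and 3 are the lowest points in all 9 panels. LPS libraries 4 and 5 lie among the Ba+LPS libraries, except that LPS library 4 lies above all of them for Cfb.

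C1q is built from 3 chains, encoded side by side by C1qa (ENSMUSG00000036887), C1qc (ENSMUSG00000036896) and C1qb (ENSMUSG00000036905) on the minus strand of chromosome 4. On GRCm38, which is also called mm10, they span chr4:136895917-136898803, chr4:136889804-136893065 and chr4:136880129-136886187, each with 3 exon blocks. C1qa had 57.9, 78.0, 67.0, 23.9 and 34.9 CPM in Ba+LPS libraries 1, 2, 3, 5 and 7, against 19.8, 19.5, 17.1, 35.2 and 43.2 CPM in LPS libraries 1 to 5. C1qb had 70.9, 72.4, 69.1, 34.9 and 37.4 CPM in the Ba+LPS libraries, against 19.5, 18.9, 17.1, 61.5 and 46.8 CPM in the LPS libraries. C1qc had 54.2, 63.9, 56.1, 25.5 and 39.2 CPM in the Ba+LPS libraries, against 17.8, 15.3, 14.0, 42.2 and 40.4 CPM in the LPS libraries. For each chain, Ba+LPS libraries 1, 2 and 3 exceeded every LPS library, and Ba+LPS libraries 5 and 7 lay below at least 1 of LPS libraries 4 and 5.

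C1qa averaged 52.3 ± 22.4 CPM in Ba+LPS and 27.0 ± 11.6 CPM in LPS hearts (SD, n = 5 each), and its log2 fold change with standard error was 0.96 ± 0.35 (edgeR adjusted p = 0.355). C1qc averaged 47.8 ± 15.3 CPM in Ba+LPS and 25.9 ± 14.1 CPM in LPS hearts (0.88 ± 0.36, edgeR adjusted p = 0.401). C1qb averaged 56.9 ± 19.0 CPM in Ba+LPS and 32.7 ± 20.2 CPM in LPS hearts (0.80 ± 0.39, edgeR adjusted p = 0.478). Two-sided exact permutation tests over the libraries gave p = 0.0714, 0.0714 and 0.0952 for C1qa, C1qc and C1qb, where 5 against 5 libraries allow a smallest p of 0.00794. For C1qa, C1qc and C1qb the unadjusted edgeR p-values were 0.0201, 0.0332 and 0.0664. None of the chains passed the adjusted threshold in edgeR, and none had an exact permutation p under 0.05. Without LPS libraries 1, 2 and 3 the log2 fold changes were 0.42 ± 0.40, 0.22 ± 0.30 and 0.08 ± 0.32, in the same order.

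The chains kept close proportions. Levels between genes are compared in FPKM, the deposited unit that divides by gene length. C1qa made up 38.6% ± 3.57 of the summed C1q FPKM in Ba+LPS and 39.0% ± 5.09 in LPS libraries, C1qb 41.7% ± 3.69 and 41.8% ± 4.81, and C1qc 19.7% ± 1.85 and 19.1% ± 0.88 (SD, n = 5 each). The widest departure was LPS library 4, where C1qa took 30.2% and C1qb 50.4%. FPKM here rests on 1 length per gene in all libraries.

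Macrophage transcripts are given beside C1q because macrophages make it. The summed level of 12 macrophage markers, Adgre1, Csf1r and Cd68 among them, ran from 110.9 to 427.8 CPM in Ba+LPS and from 121.2 to 278.9 CPM in LPS libraries, and none of the 12 was at 0 in any library. Of these markers 11 had positive and 1 a negative fold change (median 0.80 on the log2 scale), with 0 past the adjusted threshold in edgeR. At an unadjusted p under 0.05, 3 of the 12 were higher, against 5.26% of all genes tested. DESeq2 called 1 of them, against 1.06% of the genes it tested. This was the macrophage chemokine receptor gene Cx3cr1, which averaged 4.9 ± 4.66 CPM in Ba+LPS and 0.698 ± 0.355 CPM in LPS hearts (edgeR log2 fold change 2.80 ± 0.69, DESeq2 adjusted p = 0.00328). With LPS libraries 1, 2 and 3 left out, the marker counts were 8 positive and 4 negative, with a median of 0.29. Per unit of that sum, the 3 C1q chains together stood at 0.652, 0.501, 0.496, 0.761 and 0.768 in Ba+LPS libraries 1, 2, 3, 5 and 7, against 0.392, 0.438, 0.397, 0.498 and 0.567 in LPS libraries 1 to 5. The ratio was highest in Ba+LPS libraries 5 and 7, where both C1q and the marker sum were lowest within that group. In whole-tissue RNA, more macrophages and more C1q transcript per macrophage cannot be told apart.

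The promoter sequences of C1qb, C1qc and C3 are shown because the C1q chains had the most similar profiles among the members and C3 the highest level. Promoters of 5 of the 9 members, these 3 with C3ar1 and C5ar1, were matched by symbol in the RefSeq table of GRCm38.p6. Each run below holds the 250 bases before the RefSeq start, 5′ to 3′ on the minus strand, at chr4:136886201-136886450, chr4:136892915-136893164 and chr17:57228137-57228386. In GENCODE, C1qc begins further upstream, at chr4:136893065, so most of its window lies inside the annotated gene. Capitals mark matches, on either strand and overlapping ones joined, to 5 short motifs: the kappaB motif of NF-kappaB factors, GGGA and CC with any 4 bases between, TTGCNNAA of C/EBP factors, TTCNNNGAA of STAT factors, GAAA and GAAA with any 2 bases between for interferon regulatory factors, and GAGGAA, a core of ETS factors such as PU.1.
C1qb: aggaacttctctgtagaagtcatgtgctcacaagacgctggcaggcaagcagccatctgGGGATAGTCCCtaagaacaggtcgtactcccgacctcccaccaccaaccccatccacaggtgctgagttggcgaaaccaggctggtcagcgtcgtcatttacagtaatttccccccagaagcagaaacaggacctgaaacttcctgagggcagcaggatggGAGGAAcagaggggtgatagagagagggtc
C1qc: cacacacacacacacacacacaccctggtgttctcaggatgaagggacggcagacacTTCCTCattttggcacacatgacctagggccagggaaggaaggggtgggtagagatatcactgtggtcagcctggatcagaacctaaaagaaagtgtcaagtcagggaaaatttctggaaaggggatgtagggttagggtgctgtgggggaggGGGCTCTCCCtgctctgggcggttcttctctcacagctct
C3: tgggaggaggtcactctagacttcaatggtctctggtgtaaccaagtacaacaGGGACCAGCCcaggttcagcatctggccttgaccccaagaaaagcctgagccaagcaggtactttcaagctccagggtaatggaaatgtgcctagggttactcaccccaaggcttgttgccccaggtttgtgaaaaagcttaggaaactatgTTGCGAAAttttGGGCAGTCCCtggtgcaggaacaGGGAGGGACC

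The C1qb and C1qc windows each held the kappaB motif and GAGGAA. The kappaB match of C1qc, 40 to 31 bases before the RefSeq start, lay inside the GENCODE gene. In C1qb the kappaB letters matched on both strands at overlapping positions, from 191 to 181 bases before the start, and GAGGAA lay 30 to 25 bases before it. The C3 window held 3 kappaB matches and 1 TTGCNNAA match, the last 45 to 38 bases before the start. None of the 5 motifs matched in the windows of C3ar1 and C5ar1. Most of the C5ar1 window, chr7:16259339-16259588, lies inside the GENCODE gene, which begins at 16259540 on the minus strand. Among 27018 promoter windows of the same length, 17.3% held the kappaB motif, 9.56% TTGCNNAA, 7.18% TTCNNNGAA, 3.04% the interferon regulatory factor motif and 23.1% GAGGAA. A match of letters is a description of these windows, and binding was not measured.

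C3 (ENSMUSG00000024164, minus strand, chr17:57203970-57228136), the protein on which all complement pathways converge, was the most abundant member. It had 695.2, 1201.8, 1485.2, 514.8 and 534.5 CPM in Ba+LPS libraries 1, 2, 3, 5 and 7, against 151.2, 157.1, 130.8, 1174.3 and 981.9 CPM in LPS libraries 1 to 5. The LPS group thus split into a low trio and a high pair, and the high pair exceeded 3 of the 5 Ba+LPS libraries. C3 averaged 886.3 ± 434.9 CPM in Ba+LPS and 519.1 ± 514.9 CPM in LPS hearts (log2 fold change 0.77 ± 0.66, edgeR adjusted p = 0.697, exact permutation p = 0.127). Without LPS libraries 1, 2 and 3 the value was -0.27 ± 0.41. C3 took between 64.2% and 72.6% of the CPM of the 9 genes in Ba+LPS libraries, against 47.9% to 50.1% in LPS libraries 1, 2 and 3 and 74.1% and 73.2% in LPS libraries 4 and 5. Liver markers were near 0: summed over 7 hepatocyte genes they reached 5.29 to 14.1 CPM in Ba+LPS and 3.36 to 11.9 CPM in LPS libraries, most of it from Ahsg, and Alb was at most 0.75 CPM in any library.

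C4b (ENSMUSG00000073418, minus strand, chr17:34728380-34743882), the main mouse C4 gene, supplies the second step of the classical pathway. It had 15.4, 42.9, 37.4, 14.1 and 14.7 CPM in the Ba+LPS libraries, against 8.39, 8.27, 6.18, 27.8 and 26.1 CPM in the LPS libraries. Ba+LPS libraries 2 and 3 were highest, while Ba+LPS libraries 1, 5 and 7 lay between the low and the high LPS libraries. The means were 24.9 ± 14.0 CPM in Ba+LPS and 15.3 ± 10.6 CPM in LPS hearts (log2 fold change 0.70 ± 0.50, edgeR adjusted p = 0.628), and -0.10 ± 0.46 without LPS libraries 1, 2 and 3. Its neighbour C4a is nearly identical in sequence, so reads may be split between the pair. C4a averaged 0.411 ± 0.0933 CPM in Ba+LPS and 0.40 ± 0.366 CPM in LPS hearts.

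Cfb (ENSMUSG00000090231, minus strand, chr17:34856374-34862518) encodes factor B, the protease subunit of the alternative pathway's C3 convertase, and was close to the detection limit. It had 24, 32, 48, 32 and 26 counts in Ba+LPS libraries 1, 2, 3, 5 and 7, against 5, 3, 4, 56 and 37 counts in LPS libraries 1 to 5. In TMM-scaled units this was 0.606 ± 0.121 CPM in Ba+LPS and 0.374 ± 0.48 CPM in LPS hearts, with the highest value, 1.17 CPM, in LPS library 4. The log2 fold change was 0.72 ± 0.74 (edgeR adjusted p = 0.756), and -0.43 ± 0.41 without LPS libraries 1, 2 and 3. Cfb shares 2246 exon bases on its strand with Gm20547, an annotated gene that also overlaps C2 and has no row in the count table, so how reads of this stretch were assigned cannot be read from the files.

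In edgeR on all libraries the receptor genes had the largest fold changes among the 9, an order that did not hold in every alternative. In limma-voom, for example, Cfb had 1.7 and C3 1.30, against 1.28 for C3ar1 and 1.32 for C5ar1. C3ar1 (ENSMUSG00000040552, minus strand, chr6:122847138-122856161), the receptor for the C3 fragment C3a, had 20.1, 28.4, 38.9, 5.24 and 11.6 CPM in the Ba+LPS libraries, against 5.04, 4.72, 4.88, 10.8 and 13.4 CPM in the LPS libraries. C5ar1 (ENSMUSG00000049130, minus strand, chr7:16246743-16259540), the receptor through which C5a draws neutrophils and macrophages, had 23.2, 21.3, 26.5, 5.14 and 14.2 CPM in the Ba+LPS libraries, against 3.74, 3.71, 3.35, 13.5 and 15.4 CPM in the LPS libraries. For both receptors Ba+LPS libraries 1, 2 and 3 exceeded every LPS library, and Ba+LPS library 5 lay near LPS libraries 1, 2 and 3. C3ar1 averaged 20.8 ± 13.3 CPM in Ba+LPS and 7.76 ± 4.06 CPM in LPS hearts (log2 fold change 1.43 ± 0.50, edgeR adjusted p = 0.332, exact permutation p = 0.0714). C5ar1 averaged 18.1 ± 8.51 CPM in Ba+LPS and 7.93 ± 5.97 CPM in LPS hearts (1.19 ± 0.54, edgeR adjusted p = 0.449, exact permutation p = 0.0635). Without LPS libraries 1, 2 and 3 they had 0.79 ± 0.62 and 0.33 ± 0.49. Neutrophil markers, a possible further source of C5ar1, summed to 36.4 to 93.9 CPM in Ba+LPS libraries, against 2.18 to 5.44 CPM in LPS libraries 1, 2 and 3 and 218.9 and 48.1 CPM in LPS libraries 4 and 5, and their part in the C5ar1 values was not tested.

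Serping1 (ENSMUSG00000023224, minus strand, chr2:84765387-84775444), the C1 inhibitor gene, had the narrowest range over all 10 libraries together. It had 146.0, 197.6, 265.2, 110.2 and 140.2 CPM in the Ba+LPS libraries, against 81.3, 86.3, 79.4, 219.2 and 172.8 CPM in the LPS libraries. Its highest library exceeded its lowest by 3.34-fold over all 10 libraries, against 11.4-fold for C3. Within groups its range was 2.41-fold in Ba+LPS and 2.76-fold in LPS libraries, and other members had narrower ones, Cfb with 1.68-fold and C1qb with 2.07-fold in Ba+LPS and C1qa with 2.53-fold in LPS libraries. Serping1 averaged 171.8 ± 60.9 CPM in Ba+LPS and 127.8 ± 64.4 CPM in LPS hearts (log2 fold change 0.43 ± 0.34, edgeR adjusted p = 0.671), and had -0.18 ± 0.31 without LPS libraries 1, 2 and 3. Its fold change was smaller than those of the 3 C1q chains in the same fit, a difference that was not tested.

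**Figure D2:**
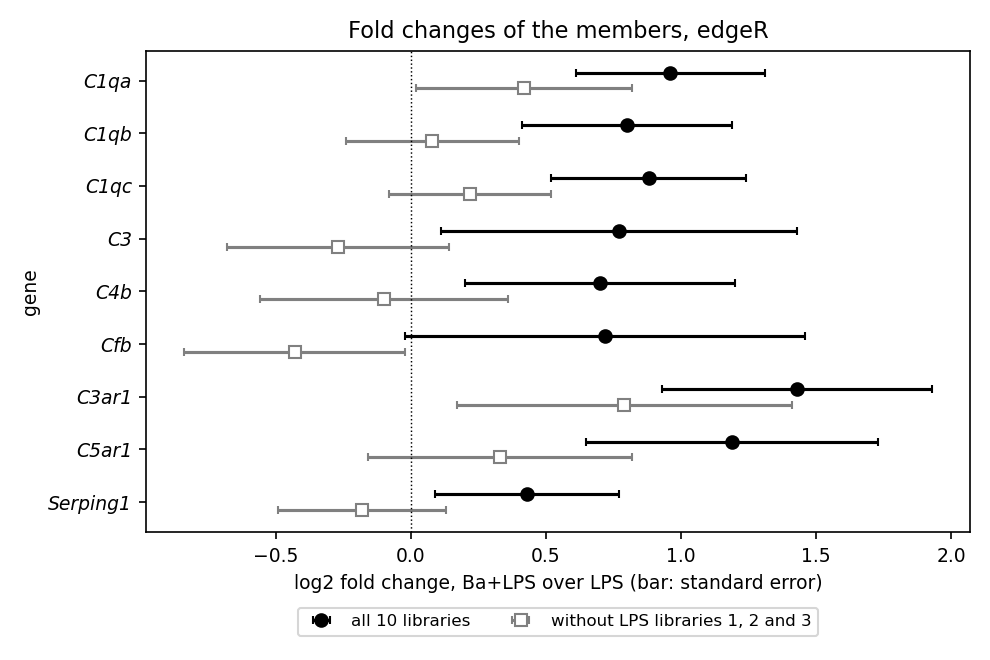
The plot gives the log2 fold change of Ba+LPS over LPS from edgeR for the 9 complement genes, with bars of 1 standard error. Filled circles use all 10 libraries and lie between 0.43 and 1.43. Open squares leave out LPS libraries 1, 2 and 3 and lie between -0.43 for Cfb and 0.79 for C3ar1.

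Per gene length, C3 led with a median of 121.8 FPKM over the 10 libraries, followed by Serping1 with 62.8, C1qb with 40.5, C1qa with 36.3 and C1qc with 21.6 FPKM. C5ar1 had 5.78, C3ar1 2.79, C4b 2.70 and Cfb 0.192 FPKM. C3 exceeded Serping1 in 7 of 10 libraries, and the order was turned in LPS libraries 1, 2 and 3, where C3 had 22.2 to 28.0 FPKM and Serping1 29.8 to 34.1 FPKM. C1qb and C1qa were not separated, with C1qb higher in 5 of 10 libraries, nor were C3ar1 and C4b, with C3ar1 higher in 4 of 10. Serping1 stood above C1qb in 9 libraries, and each of the other neighbours in this order was separated in all 10.

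The members differed in how their levels varied over the libraries. Likeness was measured as the root mean square difference of centred log2(CPM + 0.5) values over the 10 libraries, in log2 units. The closest pair was C1qb with C1qc at 0.16, followed by C1qa with C1qc at 0.20, C1qa with C1qb at 0.27, Cfb with Serping1 at 0.31 and C3ar1 with C5ar1 at 0.32. The farthest pair was C3 with Cfb at 0.84, although the added 0.5 compresses the profile of Cfb, which lies near that value. In Ba+LPS library 5, C3ar1, C5ar1 and C1qa were 1.00, 0.91 and 0.53 log2 units below their own mean over the libraries. C1qc, Serping1, C4b and C1qb were 0.34, 0.32, 0.24 and 0.16 below theirs, while C3 was 0.01 and Cfb 0.28 above. That library had the highest acute-phase sum and the lowest macrophage and fibroblast marker sums of the Ba+LPS group.

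Of 12221 other genes with at least 1 CPM on average and a symbol that is not a Gm or Rik name, Lilr4b, Zmynd15 and Lilrb4a lay closest to the mean profile of the C1q chains, at 0.16, 0.17 and 0.18. Those closest to C3ar1 were Col1a1, Tlr2 and Plek at 0.15, 0.23 and 0.24, and those closest to C5ar1 were Clec4a1, Cfp and Clec4a2 at 0.20, 0.21 and 0.21. For C3 they were Lcp2, Siglec1 and Lrrc25, each at 0.28, for C4b Ikzf1, Mpeg1 and Cxcl16 at 0.23, 0.26 and 0.27, and for Serping1 Naip2, Pik3cd and Il21r at 0.13, 0.14 and 0.14. Single chains of C1q had other nearest genes, Ugt1a7c, Tmem106a and Lilrb4a for C1qa, Itga4, C1qc and Srpx for C1qb, and C1qb, Milr1 and Gmfg for C1qc, all within 0.19. For Cfb the rule gave Arpc5, Pycr1 and Mthfd2 at 0.13, 0.14 and 0.14, under the same compression. These distances describe 10 libraries and carry no test.

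**Figure D3:**
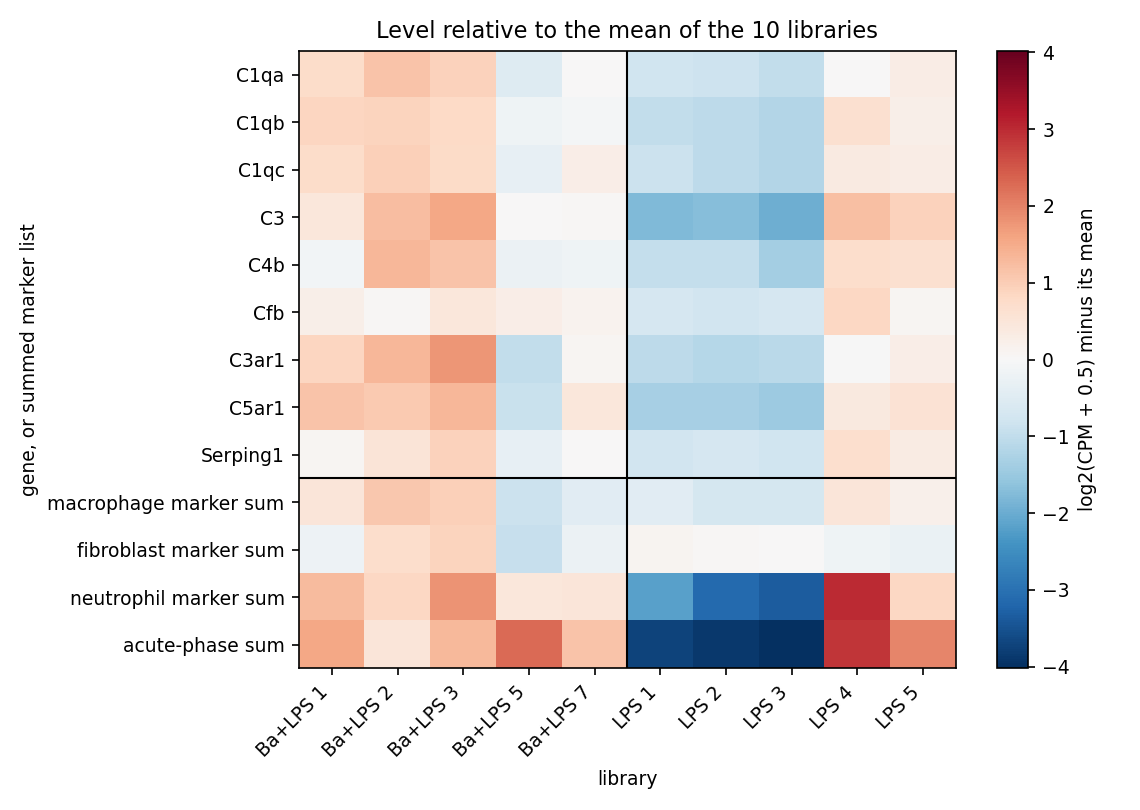
Rows are the 9 complement genes and, below the line, the summed CPM of macrophage, fibroblast, neutrophil and acute-phase lists. Columns are libraries, Ba+LPS at the left. Colour is log2(CPM + 0.5) minus its mean over the 10 libraries. LPS libraries 1, 2 and 3 are low for all 9 genes and lowest for the acute-phase sum, and Ba+LPS library 5 is low for the receptor genes while its acute-phase sum is high.

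Most other complement genes also had higher means in Ba+LPS hearts, and none passed the test. Of 43 other complement genes on the list, 39 had a row in the count table and 28 passed the filter. Of these, 22 had positive and 6 negative fold changes, and their median was 0.47 on the log2 scale. With LPS libraries 1, 2 and 3 left out, 17 were positive and 11 negative, with a median of 0.14. In edgeR 0 of the 28 passed the adjusted threshold, and DESeq2 also called 0, against 1.06% of the genes it tested. At an unadjusted p under 0.05 in edgeR, 3 were higher (Cfp, Cd55 and Vsig4), against 5.26% of all genes tested. LPS libraries 1, 2 and 3 were the 3 lowest for 10 of the 28, against 9.61% of all genes tested.

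The proteases that act beside C1q were also lowest in LPS libraries 1, 2 and 3. C1ra had 31.1 to 59.0 CPM in Ba+LPS libraries, against 13.5 to 16.5 CPM in LPS libraries 1, 2 and 3 and 67.1 and 45.9 CPM in LPS libraries 4 and 5 (log2 fold change 0.44 ± 0.44, and -0.38 ± 0.26 without LPS libraries 1, 2 and 3). C1s1 averaged 42.8 ± 16.7 CPM in Ba+LPS and 28.8 ± 12.0 CPM in LPS hearts (0.57 ± 0.32, and 0.05 ± 0.33 without those 3). The lectin pathway protease gene Masp1 averaged 24.6 ± 4.42 CPM in Ba+LPS and 16.2 ± 8.73 CPM in LPS hearts (0.61 ± 0.31, edgeR adjusted p = 0.50), and its value without those 3 was -0.03 ± 0.20. Colec11, a lectin that can start that pathway, ran the other way, with 5.84 to 9.96 CPM in Ba+LPS libraries against 13.4, 14.4 and 14.3 CPM in LPS libraries 1, 2 and 3 and 5.73 and 8.22 CPM in LPS libraries 4 and 5 (-0.47 ± 0.26, edgeR adjusted p = 0.522). Its direction turned without those 3 libraries, to 0.22 ± 0.24.

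In the alternative pathway, Cfp, which encodes the convertase stabiliser properdin, had 25.1, 35.3, 37.3, 9.35 and 16.7 CPM in the Ba+LPS libraries, against 5.72, 5.09, 4.59, 19.8 and 17.4 CPM in the LPS libraries. Its log2 fold change was 1.24 ± 0.50 (edgeR adjusted p = 0.396), and 0.42 ± 0.46 without LPS libraries 1, 2 and 3. Cfd, the gene of factor D and a product of fat cells, had 0.581, 6.87, 4.87, 0.0794 and 0.0817 CPM in the Ba+LPS libraries, against 0.667, 0.992, 0.651, 3.86 and 0.375 CPM in the LPS libraries (0.96 ± 1.09, and 0.28 ± 1.50 without those 3). The adipocyte marker sum was 8.97 and 9.90 CPM in Ba+LPS libraries 2 and 3, where Cfd was highest, and 0.368 to 2.60 CPM in the other 8 libraries, and its part in the Cfd values was not tested.

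Terminal components were scarce: of 7 listed, 2 passed the filter, with C7 at 3.08 ± 1.40 CPM in Ba+LPS and 2.14 ± 0.541 CPM in LPS hearts (0.53 ± 0.33, and 0.28 ± 0.45 without LPS libraries 1, 2 and 3) and C8g at 1.42 ± 0.143 and 1.43 ± 0.259 CPM (-0.01 ± 0.19, and 0.23 ± 0.29 without those 3). Among soluble regulators, clusterin (Clu), a chaperone that binds the terminal complex, had 1388.6 to 1854.2 CPM in Ba+LPS libraries, against 661.9 to 752.3 CPM in LPS libraries 1, 2 and 3 and 2072.7 and 1623.2 CPM in LPS libraries 4 and 5 (0.47 ± 0.32). Clu turned to -0.18 ± 0.18 without LPS libraries 1, 2 and 3. Of 6 membrane regulators, 3 had positive and 3 negative fold changes, with a median of 0.04 on the log2 scale. Cr1l, the mouse regulator Crry, had 47.8 to 53.5 CPM in Ba+LPS and 52.3 to 61.6 CPM in LPS libraries (-0.15 ± 0.08, edgeR adjusted p = 0.510, exact permutation p = 0.0238), and -0.08 ± 0.12 without those 3 libraries. Cd55, which speeds the decay of convertases, averaged 18.5 ± 9.58 CPM in Ba+LPS and 10.6 ± 2.91 CPM in LPS hearts (0.80 ± 0.35, edgeR adjusted p = 0.424), and had 0.58 ± 0.50 without them.

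Of the other receptors, Vsig4, a macrophage receptor for C3 fragments, had the largest fold change of all complement genes tested in edgeR on all libraries. It had 7.6, 18.5, 11.5, 3.18 and 2.37 CPM in the Ba+LPS libraries, against 0.544, 0.705, 0.364, 2.08 and 3.49 CPM in the LPS libraries (2.58 ± 0.72, edgeR adjusted p = 0.299, exact permutation p = 0.0238). Each Ba+LPS library exceeded 4 of the 5 LPS libraries, and LPS library 5 lay above Ba+LPS libraries 5 and 7. Without LPS libraries 1, 2 and 3 its value was 1.63 ± 0.76 (edgeR adjusted p = 0.424). The second C5a receptor gene, C5ar2, stayed near 1 CPM, with 1.08 ± 0.612 CPM in Ba+LPS and 0.714 ± 0.152 CPM in LPS hearts (0.60 ± 0.37, and 0.53 ± 0.55 without those 3). The subunits of complement receptor 3, Itgam and Itgb2, had 0.74 ± 0.82 and 0.42 ± 0.59, and Cd93, a surface protein of endothelial and myeloid cells, 0.20 ± 0.35. All 3 turned without LPS libraries 1, 2 and 3, to -0.45 ± 0.27 for Itgam, -0.55 ± 0.38 for Itgb2 and -0.50 ± 0.21 for Cd93. Itgam shares 3450 exon bases on its strand with Gm49368, another row of the table, so its level is uncertain.

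**Figure D4:**
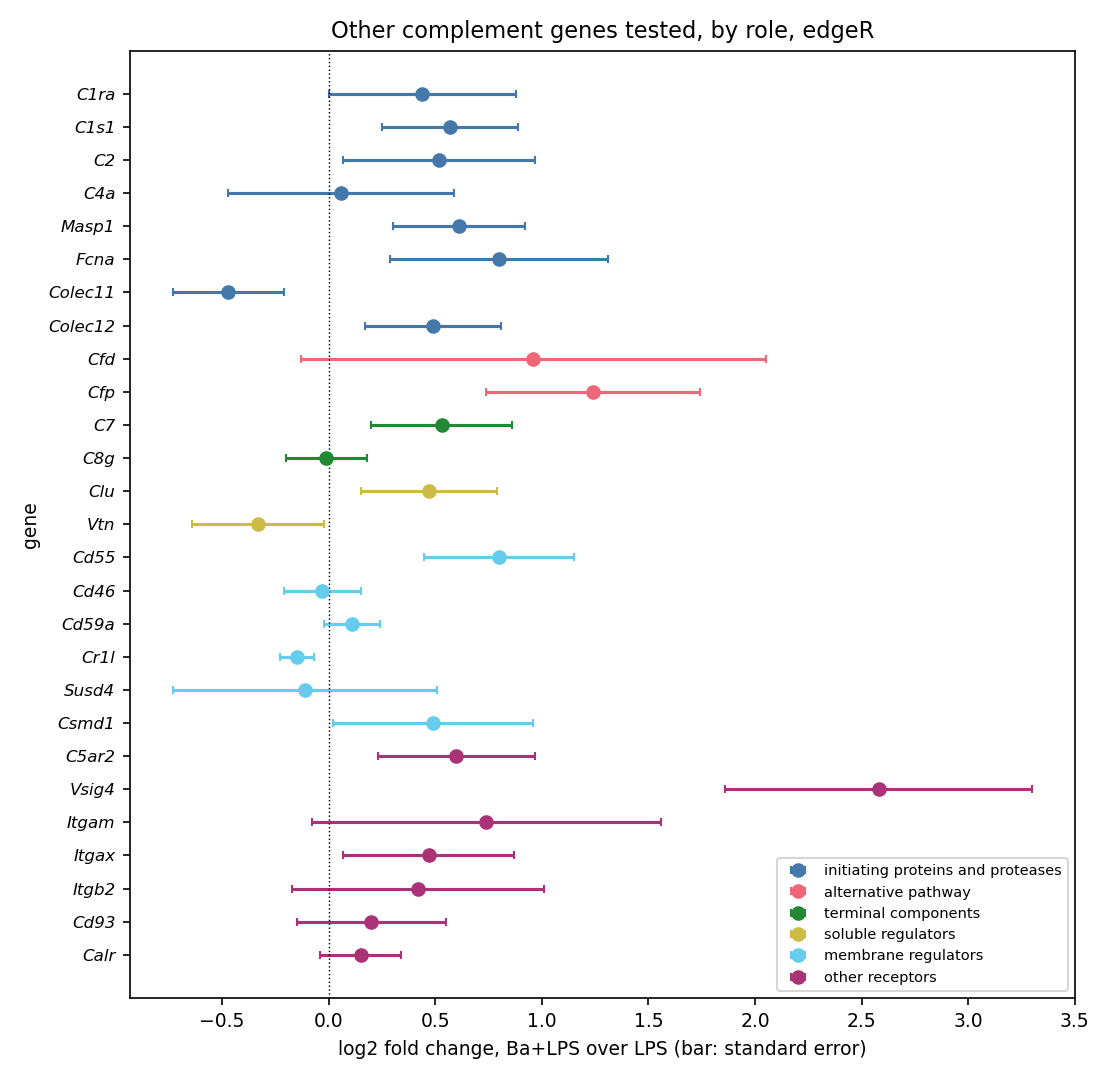
The plot gives the log2 fold change of Ba+LPS over LPS from edgeR for 27 other complement genes tested, coloured by role, with bars of 1 standard error. Values lie between -0.47 for Colec11 and 2.58 for Vsig4, and 21 of the 27 are above 0.

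The call for the 9 members depended on how libraries were weighted. With limma-voom and sample quality weights all 9 passed an adjusted p of 0.05 as higher in Ba+LPS, as did 9.45% of all genes tested (17.6% in either direction), and so did C1ra, C1s1, Masp1, Cfp, Clu, Vsig4, Itgam, Itgb2 and Cd93, while Colec11 passed as lower. That fit gave weights of 3.17, 2.33 and 2.47 to LPS libraries 1, 2 and 3, 0.16 and 0.485 to LPS libraries 4 and 5, and 0.556 to 1.87 to the Ba+LPS libraries. LPS libraries 1, 2 and 3, in which each member was lowest, thus carried the largest weights of the LPS group. Unweighted limma-voom and DESeq2 called 0 of the 9.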

How the data were processed

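RNA sequencing covered 10 mouse heart libraries, 5 Ba+LPS and 5 LPS. Per the labels, RNA was extracted with TRIzol and libraries were made with an ABclonal mRNA kit. The deposited counts are whole numbers per Ensembl gene ID with no normalization, on mm10, as the submitters' processing notes name it. Neither those notes nor the labels name the aligner, counter, annotation or strand setting. The deposited FPKM values are these counts divided by a fixed length for each gene and by the library's total, with a largest relative deviation of 6.77e-15. From 61.6% to 64.7% of counts between 1 and 50 in a library were even, so counts are not independent fragments, and no counting intervals are given.

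Counts were tested with edgeR 4.0.16 in R 4.3.3 (quasi-likelihood F test, filterByExpr, TMM, robust fit), which left 16850 genes, with two-sided tests and Benjamini-Hochberg adjustment over all of them. CPM values are TMM-scaled, and single-gene exact permutation tests used log2(CPM + 0.5). Alternatives used DESeq2 1.42.0, limma 3.58.1, other scalings, filters and units, and left-out libraries. The edgeR fit was tested on simulated counts, and the other tools were not. Symbols and coordinates are from GENCODE M21 (GRCm38), which named 31076 IDs and not the other 579.

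The members and lists were chosen with earlier results of these data known. The text names all 9 members, the 2 other complement genes of smallest p in each role, and any that a tool called, except for 1 gene that is not reported here. C4a, Alb, Cx3cr1, Tie1 and Esam were added after their values were seen. The labels do not say which mouse a library came from, and p-values therefore measure only the spread among libraries, which may be technical. Libraries of a pair always differed by more than sampling noise (smallest chi-square per degree of freedom 15.2). Same-numbered libraries of the groups did not deviate together, so the numbers were not used to pair them.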

Additional observations from a re-analysis of the deposited data

Results flagged for a closer look

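Cfd had 3.86 CPM in LPS library 4, and the nearest other LPS library had 0.992 CPM, a gap of 0.823 of the group's range against Dixon's critical value of 0.71 for 5 samples. It was 1 of 52 gene and group combinations checked, and chance marks about 1 in 20. Whether LPS library 4 held more fat tissue was not tested, and its adipocyte marker sum was 1.96 CPM, within the range of the other LPS libraries.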

How the results depend on the processing

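Over the scalings, filters, tools and units tried on all 10 libraries, the fold changes of the 9 members kept their sign, and 0 of 9 passed in any but 1. Limma-voom with sample quality weights called 9 members, 10 other complement genes and 2974 genes in all, whereas edgeR called 0 of each. DESeq2 called 199 genes and edgeR without a filter 2, none of them a complement gene of the lists. Leaving out 1 library at a time called 0 genes and 0 members each time (range 0 to 0), and between 1282 and 3112 genes had an unadjusted p under 0.05. The members' median log2 fold change then ran from 0.64 (without LPS library 3) to 1.15 (without LPS library 4). With 1 library left out, values past 1.5 times the reported one were, among members, C3 (0.50 without Ba+LPS library 3, 1.32 without LPS library 4), Serping1 (0.22 and 0.71, the same libraries), C4b (0.41 without Ba+LPS library 2) and Cfb (0.43 without LPS library 2, 1.73 without LPS library 4, and also without LPS libraries 1 and 3). Among other complement genes, the lowest and highest were 0.25 and 0.91 for C1ra, 0.46 and 1.34 for Itgam, 0.17 and 1.09 for Itgb2, 0.05 and 0.57 for Cd93 (lowest without LPS library 2 or 3, highest without LPS library 4, and past 1.5 times also without LPS library 1, for Itgam and Cd93 LPS library 5, and for Itgb2 and Cd93 Ba+LPS library 3), and 0.13 without Ba+LPS library 2 and 1.91 without LPS library 4 for Cfd, which Ba+LPS library 3 also moved past it. Ba+LPS library 3 moved C1s1 to 0.36, C7 to 0.34 and C5ar2 to 0.30, and LPS library 4 moved Masp1 to 0.92 and Clu to 0.79. Over tools, scalings and units Cfb ran from 0.11 on log2(FPKM + 1) to 2.73 with quality weights, and C3 from 0.77 to 2.18 with quality weights. Without LPS libraries 1, 2 and 3 together, the sign turned for C3 (-0.27), C4b (-0.10), Cfb (-0.43) and Serping1 (-0.18), and for C1ra (-0.38), Masp1 (-0.03), Colec11 (0.22), C8g (0.23), Clu (-0.18), Itgam (-0.45), Itgb2 (-0.55) and Cd93 (-0.50). Those libraries were the lowest for all 9 members. Near 0, Cfd was -0.15 in limma-voom, -0.02 with quality weights and -0.05 on log2(FPKM + 0.1), and C8g 0.09 with library totals, 0.01 in limma-voom, 0.08 and 0.05 on log2(FPKM + 0.1) and log2(FPKM + 1), and -0.10 to 0.08 with 1 library left out. With the replicate number as a block over the 4 shared numbers, 0 genes and 0 members were called, and the median of the members was 1.39. Same-numbered libraries had correlations of deviations of -0.15, 0.08, -0.07 and 0.06, so the block rests on a shared number only. Depth limits Cfb most, with 3 to 5 counts in LPS libraries 1, 2 and 3.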
